A study of Mus musculus with 10 samples.

Results

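The 10 genes described here encode secreted cytokines of the IL-6, IL-10 and IL-12 families or their subunits, namely Il6, Lif, Osm, Clcf1, Il10, Il12a, Il12b, Il23a, Il27 and Ebi3. They were chosen by symbol, as 10 of the 43432 mouse genes in the table, and 9 of them passed the filter on low counts (Il12a did not). The cells were RAW264.7, a macrophage line of mouse origin, sequenced in 5 groups of 2 libraries, each numbered in the labels as a biological replicate. These were DMSO (0.5% solvent, no LPS), DMSO + LPS (0.5% solvent with 1 µg/mL LPS), and the keto fatty acid **1** at 3.2, 10 or 32 µM with the same LPS. LPS, the bacterial lipopolysaccharide that activates macrophages, followed 1 h after **1** or solvent, and RNA was taken after 12 h. No group received **1** without LPS, so all values for **1** are from LPS-treated cells of this single line.

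IL-6 family cytokines signal through receptor complexes that contain gp130 (Il6st), and IL-10 through a receptor of 2 chains (Il10ra and Il10rb). The IL-12 family is built from pairs of subunits: Il12b encodes the shared p40 chain, which joins the p35 chain of Il12a to form IL-12 or the p19 chain of Il23a to form IL-23. The p28 chain of Il27 joins the product of Ebi3 to form IL-27. All of them act through JAK kinases and STAT transcription factors, which raise SOCS feedback inhibitors. In macrophages, LPS is known to switch on many of these genes through NF-κB and its partners, and IL-10 to restrain that response.

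The stretches just before the transcription start are shown for Il6, Lif and Ebi3, because these are the members whose windows held a searched motif. Each is the 250 bases before the RefSeq start, 5′ to 3′ on the gene's strand (GRCm38.p6, all on the plus strand), and capitals mark motif matches on either strand. They lie at chr5:30012864-30013113, chr11:4257318-4257567 and chr17:55952373-55952622.
Il6: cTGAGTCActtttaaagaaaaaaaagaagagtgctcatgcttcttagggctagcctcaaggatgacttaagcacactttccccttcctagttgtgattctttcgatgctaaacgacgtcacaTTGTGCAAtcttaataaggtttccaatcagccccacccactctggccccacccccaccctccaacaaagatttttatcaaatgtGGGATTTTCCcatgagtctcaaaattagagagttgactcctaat
Lif: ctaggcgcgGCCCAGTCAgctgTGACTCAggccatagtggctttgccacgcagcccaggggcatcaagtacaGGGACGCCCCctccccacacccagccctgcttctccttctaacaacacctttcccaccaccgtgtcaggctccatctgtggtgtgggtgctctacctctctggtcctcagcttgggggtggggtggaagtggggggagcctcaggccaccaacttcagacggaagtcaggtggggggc
Ebi3: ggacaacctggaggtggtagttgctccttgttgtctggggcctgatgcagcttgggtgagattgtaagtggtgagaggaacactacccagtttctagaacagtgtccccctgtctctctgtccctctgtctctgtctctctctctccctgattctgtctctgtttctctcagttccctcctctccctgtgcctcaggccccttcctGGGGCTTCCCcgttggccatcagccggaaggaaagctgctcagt
The motifs were the NF-κB site by name, AP-1 (TGANTCA), C/EBP (TTGCNNAA), the core of the interferon-stimulated response element by name and the antioxidant response element (TGACNNNGC). In the Il6 window the matches were AP-1 from −249 to −243, C/EBP from −128 to −121 and NF-κB from −44 to −35, counted back from the start. In the Lif window they were the antioxidant response element from −241 to −233, AP-1 from −228 to −222 and NF-κB from −178 to −169. The Ebi3 window held NF-κB from −44 to −35. No match overlapped another. Of 32851 windows of this length, 7.25% held the NF-κB motif, 6.75% AP-1, 9.56% C/EBP, 2.98% the response element core and 10.2% the antioxidant element. Windows were matched for 5 of the 10 members, 6 windows in all, and those of Il12a and Il12b held no match. A match describes the letters only.

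Library totals lay between 45966803 and 58976377 counts, and values below are counts, or CPM (counts scaled to the TMM-adjusted library total). The share of ribosomal RNA was 2.83% of counts in 1 library, replicate 2 at 32 µM, and 0.153% to 0.333% in the other libraries. The replicates differed along transcript length: a short-transcript score (the median log2 CPM of 350 genes with transcripts under 1000 nt, relative to the other libraries) was 0.13 and −0.26 in the 32 µM libraries, 0.28 and −0.12 in those at 10 µM, and 0.04 and −0.39 in DMSO. In DMSO + LPS and at 3.2 µM it lay between −0.04 and 0.19. All 12 macrophage markers had counts in every group, with a summed level of 11301 to 12305 CPM in DMSO, 10637 to 10762 in DMSO + LPS, 9947 to 10125 at 3.2 µM, 8804 to 9637 at 10 µM and 8267 to 8755 at 32 µM. Against DMSO + LPS, 4 of these markers were called lower at 32 µM (Itgam, Lyz2, Fcgr1 and Mrc1) and 0 higher, where 2.91% and 1.27% of all genes tested were, while Csf1r was at 0.40 on the log2 scale (adjusted p = 0.00118, edgeR). Their part in the results was not tested. Of 14 markers of other cell types, 3 (Cd3e, Cd8a and Ncr1) were at 0 in all 10 libraries. Their summed level was 1.81 to 4.14 CPM in 9 libraries and 14.1 CPM in replicate 1 at 10 µM, where the epithelial marker Epcam had 451 counts, against 78 in replicate 1 at 3.2 µM and 0 to 2 elsewhere.

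LPS raised all 9 members that could be tested. A gene was called when it differed at least 1.5-fold (0.585 on the log2 scale) with an adjusted p below 0.05 by edgeR's quasi-likelihood test, the Benjamini-Hochberg value over the 14172 genes tested. Of all genes tested, 14.6% were called higher with LPS, so the members' 9 of 9 stands beside that share. On unscaled library totals, as the filter reads them, Il6, Il12b, Il23a and Clcf1 reached its level of 0.204 CPM in no DMSO library and Il10 in 1, so these 5 members passed the filter through their LPS-treated libraries and had to differ, and the count is a description. The median log2 fold change of the 9 members was 5.76, against 0.00 over all genes tested. The smallest p that an exact permutation test allows for 2 libraries a group is 0.333, so the model-based tests borrow the spread of all genes and groups.

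Il6, which encodes the fever and acute-phase cytokine IL-6, had 0 counts in both DMSO libraries and 5420 and 4648 counts in DMSO + LPS. Its mean level of 96.8 CPM ± 3.06 (SD, n = 2) was at least 1864-fold higher than a floor of 3 counts per library. Clcf1, a ligand of the CNTF receptor, went from 2 counts in each DMSO library to 621 and 540. That is a ratio of 322, with a 95% exact counting interval of 125 to 1183 that covers counting error only. Both groups of each gene were far apart.

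Lif, the leukemia inhibitory factor, had 0.272 and 0.476 CPM in DMSO and 59.9 and 63.4 CPM once LPS was added (log2 fold change 7.36, SE 0.15, adjusted p = 1.04e-08, edgeR). Il10, the anti-inflammatory member, had 0.272 and 0.123 CPM and then 10.8 and 10.9 CPM (log2 fold change 5.76, SE 0.24, and 6.43 or 5.29 without replicate 1 or 2 of DMSO). Il27 had 0.221 and 0.194 CPM and then 10.2 and 10.8 CPM (5.64, SE 0.15). These genes were near the detection level of the filter without LPS and between 50.6-fold (Il27) and 165-fold (Lif) higher with it. Ebi3 and Osm, which encodes oncostatin M, differed from them in being present before LPS. Ebi3 had 4.80 and 4.09 CPM in DMSO and 25.3 and 24.9 CPM with LPS, and Osm 3.78 and 4.67 CPM and then 26.2 and 27.0 CPM. Their rises were 5.66-fold and 6.30-fold. Gm16712, an antisense gene that overlaps Ebi3 and may share its reads, was called higher as well (0.867 and 0.951 CPM to 6.23 and 6.43 CPM, log2 fold change 2.80, adjusted p = 1.02e-05, edgeR).

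The genes of IL-12 and IL-23 were scarce throughout. Il12a had 0 counts in 9 libraries and 1 count in replicate 2 of DMSO + LPS, and was not tested. Il12b had 0 counts in both DMSO libraries and 25 and 20 counts with LPS, a level at least 8.30-fold higher than the floor. Il23a had 7 and 10 counts in DMSO and 61 and 59 with LPS, a log2 fold change of 2.96 (SE 0.34). IL-12 needs both Il12a and Il12b, and at this depth only the second was above the floor in DMSO + LPS.

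**Figure D1:**
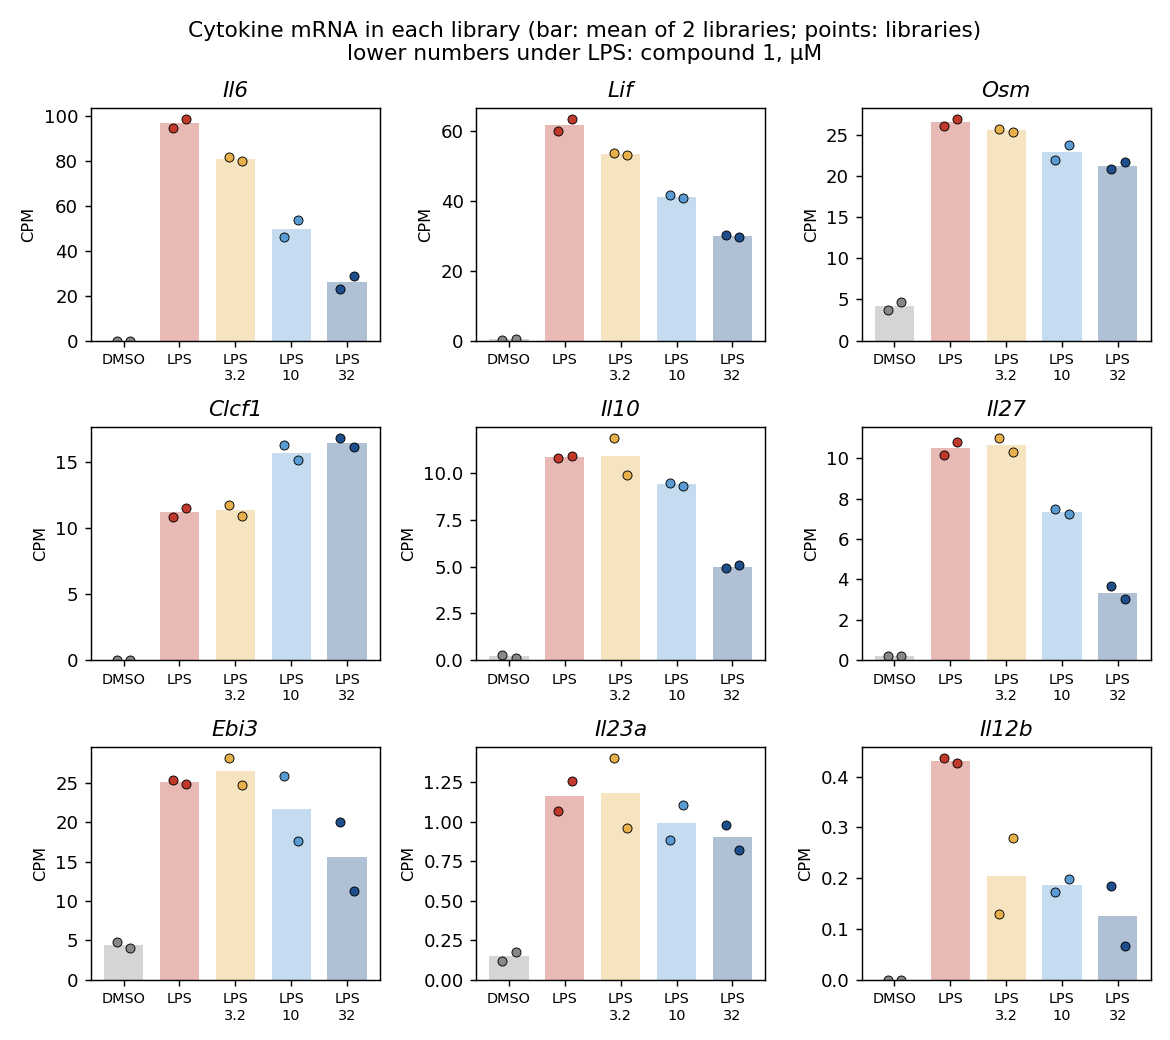
Level of the 9 tested members in each of the 10 libraries (CPM on a linear axis from 0), by group, with points for libraries and bars for the mean of 2 libraries. Il6, Il10, Il27 and Lif were highest in DMSO + LPS or at 3.2 µM and lowest of the LPS-treated groups at 32 µM (Il6 from 96.8 to 26.1 CPM), while Clcf1 levels were above DMSO + LPS at 10 and 32 µM.

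Per kilobase of the principal transcript, a scale on which genes can be compared, the order of the levels in DMSO + LPS was Il6 at 84.9 CPM per kb, Ebi3 at 21.8, Lif at 15.3, Osm at 11.7, Il27 at 10.3, Il10 at 8.30, Clcf1 at 6.05, Il23a at 0.854 and Il12b at 0.222. The SD of 2 libraries was at most 2.68 CPM per kb (Il6), so the Il6 level stood far above the next. In DMSO only Ebi3 (3.85 CPM per kb) and Osm (1.86) were over 1 CPM per kb, with Il27 at 0.203 and Il10 at 0.151. At 32 µM the order was Il6 at 22.8 CPM per kb, Ebi3 at 13.6, Osm at 9.37, Clcf1 at 8.89, Lif at 7.43, Il10 at 3.82, Il27 at 3.28, Il23a at 0.662 and Il12b at 0.0644. Osm and Clcf1 differed there by less than the sum of their SDs (0.247 and 0.259 CPM per kb), and the SD of Ebi3 (5.40) reached the level of Osm. The order is a description of mRNA levels.

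**Figure D2:**
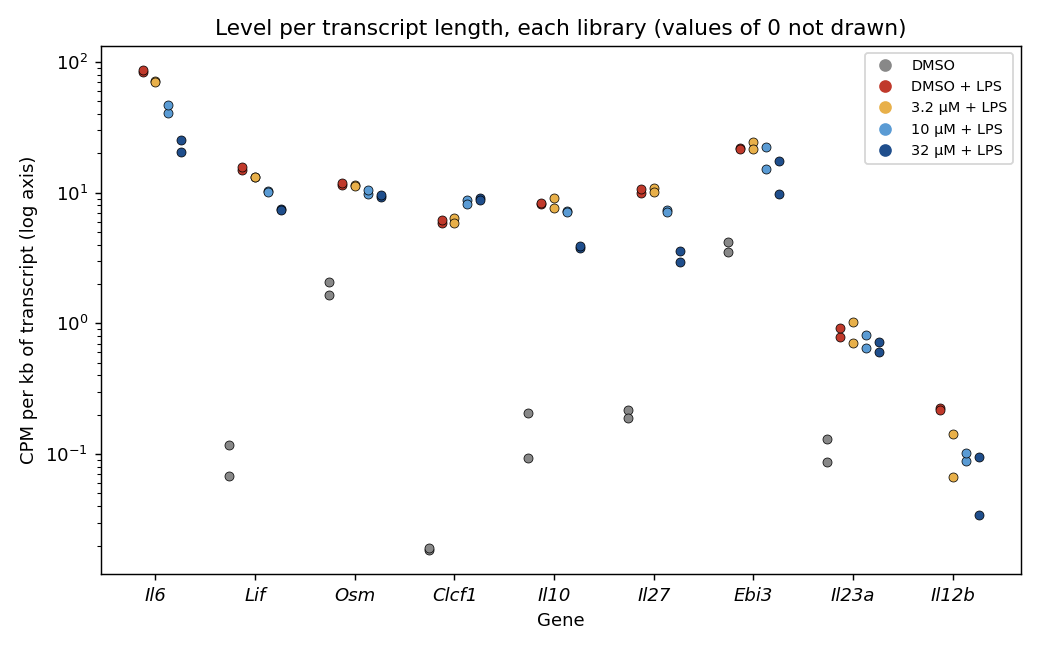
Level of each member per kilobase of its principal transcript (CPM per kb, log axis), with a point for each library and a color for each group, and with values of 0 not drawn. Il6 was the highest of the members in DMSO + LPS (84.9 CPM per kb) and at 32 µM (22.8 CPM per kb).

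At 32 µM, 4 members were called lower than in DMSO + LPS and 0 higher: Il6, Il27, Il10 and Lif. Of all genes tested, 2.91% were called lower and 1.27% higher in that comparison. In 8 members both libraries at 32 µM lay below both of DMSO + LPS, against 24.3% of all genes tested, and in 1 member, Clcf1, both lay above, against 25.7%. Il12b, among the 8, passed the filter through DMSO + LPS, with 2 libraries over its level there and 0 at 32 µM. Its place in that count is a description. The median log2 fold change of the 9 members tested was −1.04, against 0.01 over all genes tested. RNA from whole cultures cannot tell fewer cells with a transcript from less of it per cell.

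Among the IL-6 family ligands, Il6 itself differed most. It had 94.7 and 99.0 CPM in DMSO + LPS, 81.7 and 79.9 CPM at 3.2 µM, 46.0 and 53.6 CPM at 10 µM, and 23.2 and 28.9 CPM at 32 µM. No library of a dose overlapped one of the next, and the means at the 3 doses were 83.4%, 51.5% and 26.9% of the DMSO + LPS mean. The change at 32 µM was −1.89 on the log2 scale (SE 0.12, adjusted p = 1.06e-04, edgeR), which is 3.72-fold lower.

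Lif, like Il6, was lower at each dose in turn. It had 59.9 and 63.4 CPM with LPS alone, 53.5 and 53.1 CPM at 3.2 µM, 41.6 and 40.7 CPM at 10 µM, and 30.2 and 29.6 CPM at 32 µM. These are 86.5%, 66.7% and 48.5% of the DMSO + LPS mean, again with no overlap between neighboring groups. At 32 µM the log2 fold change was −1.04 (SE 0.10, adjusted p = 3.37e-04, edgeR).

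Osm, whose gene lies beside Lif on chromosome 11, had 26.2 and 27.0 CPM in DMSO + LPS and 20.9 and 21.7 CPM at 32 µM, with 25.8 and 25.4 CPM at 3.2 µM and 22.0 and 23.8 CPM at 10 µM. The groups did not overlap, but at 80.1% of the DMSO + LPS mean the difference at 32 µM missed both thresholds (log2 fold change −0.32, SE 0.09, adjusted p = 0.0691, edgeR). Osm spans bases 4236420 to 4241026 and Lif 4257557 to 4272514 of that chromosome (GENCODE M21 on GRCm38, both on the plus strand). On the log2 scale the value of Lif was thus −1.04 and that of its neighbor −0.32, and the difference between the genes was not tested.

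Clcf1 had the opposite sign. Its levels were 10.8 and 11.5 CPM in DMSO + LPS, 11.7 and 10.9 CPM at 3.2 µM, 16.2 and 15.1 CPM at 10 µM, and 16.8 and 16.1 CPM at 32 µM. Both higher doses lay above every DMSO + LPS and 3.2 µM library, at 140% and 147% of the DMSO + LPS mean. At 32 µM the log2 fold change was 0.56 (SE 0.07, adjusted p = 0.00245, edgeR), which passed the p threshold but not the 1.5-fold cutoff, so Clcf1 was not called. In GENCODE M21 a readthrough gene with no row in the table covers most of the Clcf1 exons.

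Il10 had 10.8 and 10.9 CPM in DMSO + LPS and 4.90 and 5.11 CPM at 32 µM, 46.1% of the DMSO + LPS mean. Its log2 fold change was −1.12 (SE 0.17, adjusted p = 0.00425, edgeR). At the lower doses it had 11.9 and 9.92 CPM (3.2 µM) and 9.50 and 9.31 CPM (10 µM). The 3.2 µM libraries lay on either side of DMSO + LPS, and those at 10 µM lay just below it.

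The subunits of IL-27 are given side by side. Il27 had 10.2 and 10.8 CPM in DMSO + LPS, 11.0 and 10.3 CPM at 3.2 µM, 7.50 and 7.24 CPM at 10 µM, and 3.66 and 3.03 CPM at 32 µM. The last is 31.8% of the DMSO + LPS mean, with a log2 fold change of −1.65 (SE 0.11, adjusted p = 6.42e-05, edgeR), and of the 4 called members Il27 had the smallest adjusted p.

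Ebi3 had 25.3 and 24.9 CPM in DMSO + LPS, 28.2 and 24.8 CPM at 3.2 µM, 25.9 and 17.6 CPM at 10 µM, and 20.0 and 11.2 CPM at 32 µM. The 2 libraries at 32 µM were further apart than in any other member over 5 CPM, and the mean was 62.3% of that in DMSO + LPS. The log2 fold change of −0.68 (SE 0.27, adjusted p = 0.178, edgeR) was not called. Replicate 2, the lower library at both 10 and 32 µM, is also the one with the lower short-transcript score at each dose. With that score in the fit the log2 fold change at 32 µM was −0.61 and was called (adjusted p = 7.07e-04, edgeR). It was also called without replicate 1 at 32 µM (−1.16, adjusted p = 0.0289, edgeR), while without replicate 2 it was −0.33 (adjusted p = 0.568, edgeR).

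Per length, Ebi3 stood at 19.2 and 18.7 times Il27 in DMSO and at 2.20 and 2.03 times in DMSO + LPS. With **1**, the ratio was 2.27 and 2.13 at the lowest dose, 3.05 and 2.15 at the middle dose, then 4.85 and 3.28 at the highest. The libraries at 32 µM lay above all 6 LPS-treated libraries without **1** or at the lower doses, and below DMSO. The ratio was not tested. Each gene overlaps one on the opposite strand: 103 exonic bases of Il27 lie within Apobr and 556 of Ebi3 within the antisense gene Gm16712. Whether strand was used in counting is not given in the sources used here, so reads of such a pair may not be separable. Apobr (log2 fold change 0.07, adjusted p = 0.535) and Gm16712 (−0.29, adjusted p = 0.424) were not called at 32 µM by edgeR.

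The p40 and p19 genes stayed close to the limit of the data. With LPS alone Il12b had 25 and 20 counts. With **1** it had 6 and 14 counts at the lowest dose, 8 and 9 at the middle dose, and 9 and 3 at the highest. Il12b reached the filter level in both DMSO + LPS libraries, in 1 at 3.2 µM and in 0 at 10 and 32 µM, so the filter favored lower values with **1**. All 6 libraries with **1** were below both of DMSO + LPS, but the log2 fold change at 32 µM (−1.75, SE 0.59) had an adjusted p of 0.136 by edgeR. It was −2.66 without replicate 1 at 32 µM and −1.22 without replicate 2. The value at 3.2 µM, −1.06, was −0.62 and −1.72 without replicates 1 and 2 of that dose. Il23a had 61 and 59 counts in DMSO + LPS, then 48 and 37 at 32 µM (log2 fold change −0.36, SE 0.29, adjusted p = 0.562, edgeR), a difference that was not called.

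**Figure D3:**
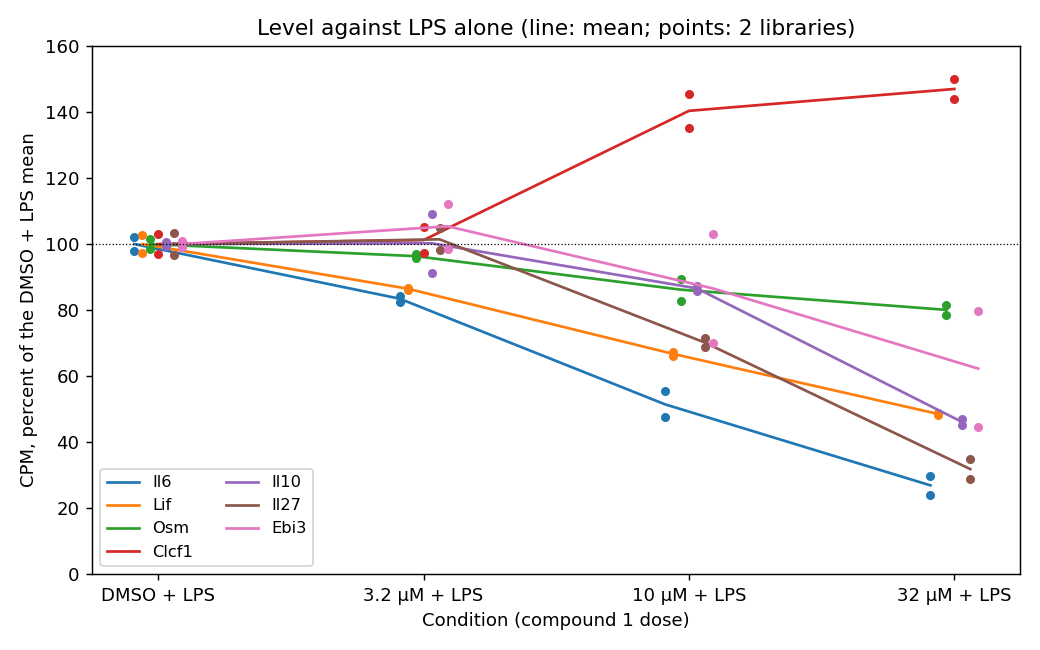
Level of 7 members (all tested but Il23a and Il12b) in each LPS-treated library as a percent of the member's DMSO + LPS mean, by dose of **1** (µM), with lines through the means of 2 libraries. At 32 µM the means of the called members were 26.9% (Il6), 31.8% (Il27), 46.1% (Il10) and 48.5% (Lif), and that of Clcf1 was 147%.

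At 10 µM, 1 member, Il6, was called lower and 0 higher, against 0.579% of all genes tested called lower. Its log2 fold change was −0.96 (SE 0.11, adjusted p = 0.00853, edgeR). The call rests on both DMSO + LPS libraries, since the adjusted p was 0.0803 without replicate 1 and 0.0878 without replicate 2. Lif (−0.58, SE 0.10, adjusted p = 0.0209, edgeR) lay at the 1.5-fold cutoff and was called without replicate 2 at 10 µM (−0.59). Il27 was at −0.51 (SE 0.11, adjusted p = 0.0543, edgeR) and Clcf1 at 0.49 (SE 0.08, adjusted p = 0.0149), both short of a call. In 6 members both libraries lay below DMSO + LPS and in 1 above, against 17.9% of all genes tested in each direction. Il12b, with 0 libraries over the filter level at 10 µM, is among the 6, so its place there is a description. The median over the members tested was −0.22, against 0.02 over all genes tested.

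At 3.2 µM the quasi-likelihood test of edgeR called 0 members and 0% of all genes. No member reached an unadjusted p below 0.05, although 120 genes did with a 1.5-fold difference. DESeq2 called 8 genes and edgeR's likelihood ratio test 3, none of them a member (0 in both). Fitted on the 4 libraries compared, Il6 and Lif passed the p threshold (adjusted p = 0.00768 and 0.0311, edgeR) without the fold. Log2 fold changes were −0.26 for Il6, −0.21 for Lif and −1.06 for Il12b, and between −0.05 and 0.08 for the other 6 members tested. In 4 members both libraries lay below DMSO + LPS, against 21.5% of all genes tested. Il12b, with 1 library over the filter level at this dose, is among the 4, so its place there is a description.

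**Figure D4:**
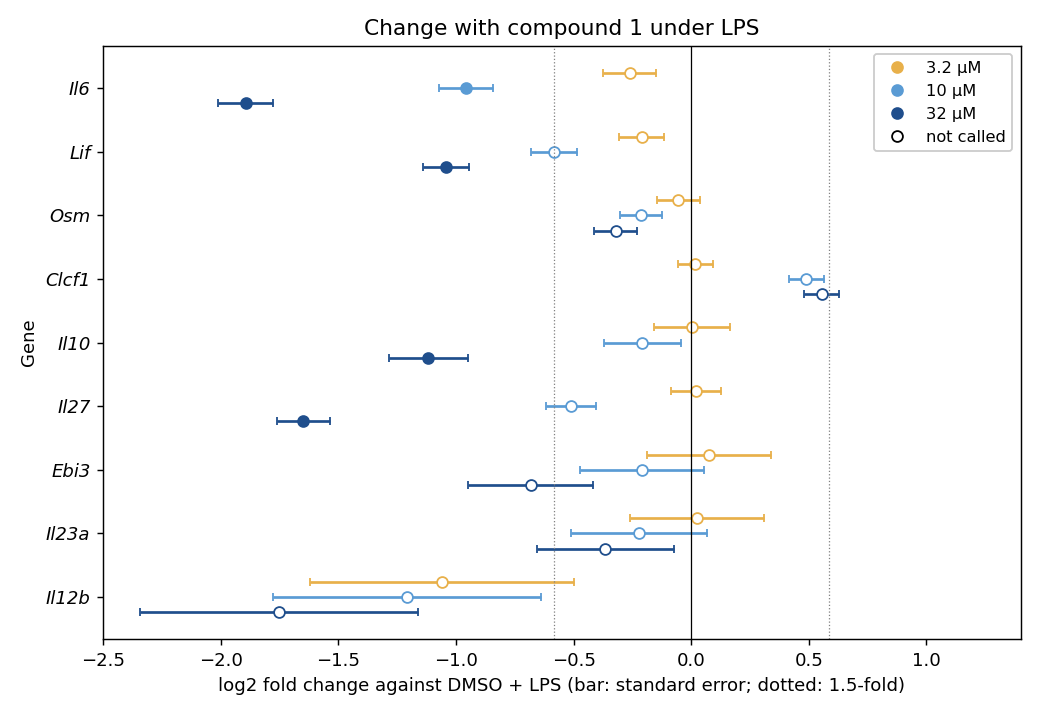
Log2 fold change of each tested member at 3.2, 10 and 32 µM of **1** against DMSO + LPS, with bars of 1 standard error, dotted lines at 1.5-fold, and filled points for calls. The doses share the same 2 DMSO + LPS libraries. Only Il6 was called at 10 µM, and Il6, Lif, Il10 and Il27 at 32 µM.

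Between the upper doses, the 32 µM libraries had 3 members called lower than at 10 µM and 0 higher, against 1.15% of all genes tested called lower. These were Il27 (log2 fold change −1.14, SE 0.11, adjusted p = 0.00138), Il6 (−0.94, SE 0.12, adjusted p = 0.00851) and Il10 (−0.91, SE 0.17, adjusted p = 0.0311), all by edgeR. Lif was at −0.46 with an adjusted p of 0.0556. Clcf1 was at 0.07 (SE 0.07, adjusted p = 0.810), so its 10 and 32 µM levels were not distinguished. The call of Il10 was lost without any 1 of the 4 libraries (adjusted p = 0.0780 and 0.0578 without replicates 1 and 2 at 10 µM, and 0.163 and 0.144 without those at 32 µM). With those 4 libraries alone in the fit, 0 members were called.

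Even at 32 µM the members stayed above cells without LPS. All 9 tested were called higher than in DMSO, against 13.9% of all genes tested, and the filter limits this count as it does the response to LPS. Il6 was at least 502-fold higher than the floor. Il12b had 9 counts in replicate 1 at 32 µM and 3 in replicate 2, the second at the floor itself, so no fold is given. Lif was 80.0-fold higher than in DMSO, Il10 25.3-fold, Il27 16.1-fold, Il23a 6.09-fold, Osm 5.04-fold and Ebi3 3.52-fold. The value for Il10 rests on 16 and 7 counts in DMSO, and its log2 fold change of 4.64 was 5.31 without replicate 1 of DMSO and 4.16 without replicate 2. Clcf1, with 2 counts in each DMSO library, had a ratio of 475 (95% exact counting interval 185 to 1745).

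Of 16 listed receptor subunits of the families, some of which bind no member, 9 were tested and 1 was called at 32 µM, in the lower direction (2.91% of all genes tested). This was Il20rb, a subunit of receptors for IL-20-type ligands that binds none of the 10 members, at 3.77 and 3.68 CPM in DMSO + LPS and 2.47 and 2.32 CPM at 32 µM (log2 fold change −0.64, adjusted p = 0.0407, edgeR). Its call was lost without any 1 of the 4 libraries (adjusted p between 0.115 and 0.196). Il6st, the gp130 chain shared by the IL-6 family, had 97.5 and 90.3 CPM in DMSO + LPS and 110 and 115 CPM at 32 µM (0.26, adjusted p = 0.0776). With LPS, 2 receptors were called higher and 2 lower, against 14.6% and 13.6% of all genes tested. Lifr, 1 of the 2 lower, passed the filter through its DMSO libraries, so that call is a description. Il6ra, the IL-6-binding chain, was called lower with LPS (101 and 116 CPM to 52.2 and 48.4 CPM) and was at 54.7 and 59.3 CPM at 32 µM.

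The 2 chains of the IL-10 receptor were both present. Il10ra was called higher with LPS (38.1 and 37.1 CPM to 81.3 and 78.1 CPM, log2 fold change 1.08) and had 65.8 and 69.2 CPM at 32 µM, a difference of −0.24 that passed the p threshold (adjusted p = 0.0150, edgeR) but not the fold cutoff. Il10rb had 44.3 and 48.3 CPM in DMSO + LPS and 60.4 and 51.8 CPM at 32 µM (adjusted p = 0.244). Receptors of several other members were nearly missing. Lifr had 11 and 23 counts in DMSO and 0 in both DMSO + LPS libraries, a called difference, and at most 5 counts in any library with **1**. On unscaled totals Lifr reached the filter level in the DMSO libraries alone, so it had to differ and the call is a description. Osmr, Il27ra and Il23r, subunits of the receptors for oncostatin M, IL-27 and IL-23, did not pass the filter. Il12rb1, a subunit shared by the IL-12 and IL-23 receptors, had 4.17 and 4.79 CPM in DMSO + LPS and 6.74 and 6.48 CPM at 32 µM, a log2 fold change of 0.56 that passed the p threshold (adjusted p = 0.0237, edgeR) and not the fold cutoff. Il12rb2, the other IL-12 receptor subunit, had 45 and 30 counts in DMSO, 33 and 15 in DMSO + LPS and 10 and 8 at 32 µM. Its difference of −1.23 on the log2 scale (SE 0.42, adjusted p = 0.123) was not called, while that between 32 µM and DMSO was (−1.75, adjusted p = 0.00807), both by edgeR.

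Of 13 kinases, STATs and feedback inhibitors, 12 were tested, 6 were called higher with LPS (14.6% of all genes tested), and 2 were called lower at 32 µM than with LPS alone (2.91% of all), with 0 higher. The list's median log2 fold change at 32 µM was −0.25, against 0.01 over all genes tested. The lower genes were the feedback inhibitors Socs2 (log2 fold change −1.92, adjusted p = 0.0251) and Cish (−1.18, adjusted p = 0.0207) by edgeR, and each lost its call without any 1 of the 4 libraries. Cish had 0 counts in DMSO and was at least 43-fold higher than the floor in DMSO + LPS. Both genes were under the filter level in the DMSO libraries, so their LPS calls are descriptions. A further 4 genes of the list, named after their values were seen, passed the p threshold without the fold. They were the feedback inhibitor Socs1 (−0.55, adjusted p = 0.0151), Stat3, the main factor of IL-6 and IL-10 signaling (−0.31, adjusted p = 0.0115), its feedback inhibitor Socs3 (−0.30, adjusted p = 0.00282) and the phosphatase gene Ptpn11 (−0.18, adjusted p = 0.0397), all by edgeR. Socs3 had 922 and 959 CPM in DMSO + LPS and 761 and 763 CPM at 32 µM, against 8.57 and 9.02 CPM in DMSO.

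Among 12 genes known to respond to IL-10 or STAT3, all tested, 9 were called higher with LPS, where 14.6% of all genes tested were. At 32 µM, 3 were called lower (2.91% of all) and 0 higher: Fcgr1, an IgG receptor (−1.70, adjusted p = 2.04e-05), Il1rn, the IL-1 receptor antagonist (−1.40, adjusted p = 1.76e-06), and Mrc1, the mannose receptor (−0.93, adjusted p = 0.0145). Il1rn had 2286 and 2241 CPM in DMSO + LPS, 1443 and 1376 CPM at 10 µM, then 873 and 841 CPM at 32 µM. At 10 µM, 2 were called lower (0.579% of all genes tested), Il1rn and Fcgr1 (both −0.68), and the call of Fcgr1 was lost without either DMSO + LPS library. Mrc1 was no longer called at 32 µM when either DMSO + LPS library or replicate 1 at 32 µM was left out (adjusted p between 0.0797 and 0.0901). Named after their values were seen, Hmox1 (0.43, adjusted p = 0.00203) and Dusp1 (0.32, adjusted p = 0.00484) in the higher direction and Msr1 (−0.42, adjusted p = 8.83e-04) and Socs3 in the lower passed the p threshold at 32 µM without the fold. The list's median log2 fold change at 32 µM was 0.03, against 0.01 over all genes tested, and Fcgr1 and Mrc1 stand in the macrophage marker list as well.

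Of 22 transcription factors known to act on cytokine genes, 20 were tested, 13 were called higher and 1 lower (Creb1) with LPS, against 14.6% and 13.6% of all genes tested. At 32 µM, 2 were called lower and 0 higher, against 2.91% and 1.27%. Maf, known as an activator of Il10, had 3.98 and 3.77 CPM in DMSO + LPS, 2.15 and 1.77 CPM at 10 µM, and 0.797 and 0.841 CPM at 32 µM, against 0.884 and 0.899 CPM without LPS. The difference between 32 µM and DMSO was not called (log2 fold change −0.12, SE 0.16, adjusted p = 0.659, edgeR). Its log2 fold changes were −2.24 (SE 0.16, adjusted p = 7.91e-05) at 32 µM and −0.98 (SE 0.15, adjusted p = 0.0140) at 10 µM by edgeR, the latter lost without either DMSO + LPS library. Nfkbiz, an NF-κB cofactor needed for Il6 and Il12b expression in macrophages, was at −0.68 (SE 0.08, adjusted p = 9.41e-04) at 32 µM, from 172 and 170 CPM to 103 and 110 CPM. Other factors passed the p threshold at 32 µM without the fold, and are named after their values were seen. Fos (0.51), Atf3 (0.46) and Fosl1 (0.25) were in the higher direction, and Cebpd (−0.58), Irf1 (−0.41), Nfkb1 (−0.32) and Irf8 (−0.28) in the lower. Of the factors called higher with LPS, Prdm1 was under the filter level in 1 DMSO library. The median of the list at 32 µM was 0.00, against 0.01 over all genes tested.

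The list of mRNA stability regulators holds 10 genes, all tested, of which 9 act on cytokine mRNA and Tnip1 encodes an inhibitor of NF-κB signaling. With LPS 4 were called higher, Tnip1 among them (log2 fold change 2.09), and 1 lower, against 14.6% and 13.6% of all genes tested. The lower gene was Zfp36l2, which encodes a protein that promotes decay of AU-rich mRNAs (188 and 209 CPM to 64.8 and 68.5 CPM). Zfp36l2 was the 1 gene of the list called at 32 µM (1.27% of all genes tested were called higher), at 95.7 and 112 CPM (log2 fold change 0.64, SE 0.10, adjusted p = 0.00529, edgeR). Leaving out replicate 1 of DMSO + LPS ended that call (adjusted p = 0.0645), as did leaving out replicate 2 at 32 µM, where the log2 fold change was 0.52. Named after their values were seen, Zfp36 (−0.44, adjusted p = 0.00128) and Zc3h12a (−0.27, adjusted p = 0.0115) passed the p threshold at 32 µM without the fold.

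Of 11 other cytokines outside the 10 members, 4 were tested and 1, Il11, was called higher with LPS (14.6% of all genes tested), with 3 and 2 counts in DMSO and 34 and 24 in DMSO + LPS. Il34, among those tested, belongs to none of the IL-6, IL-10 and IL-12 families. All 4 were under the filter level in both DMSO libraries, so they were tested through libraries with LPS and the call is a description. None of the 4 was called at 32 or 10 µM by edgeR (0 of 4 at each). Il20, Il22 and Il24, of the IL-10 family, had 0 counts in all 10 libraries.

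**Figure D5:**
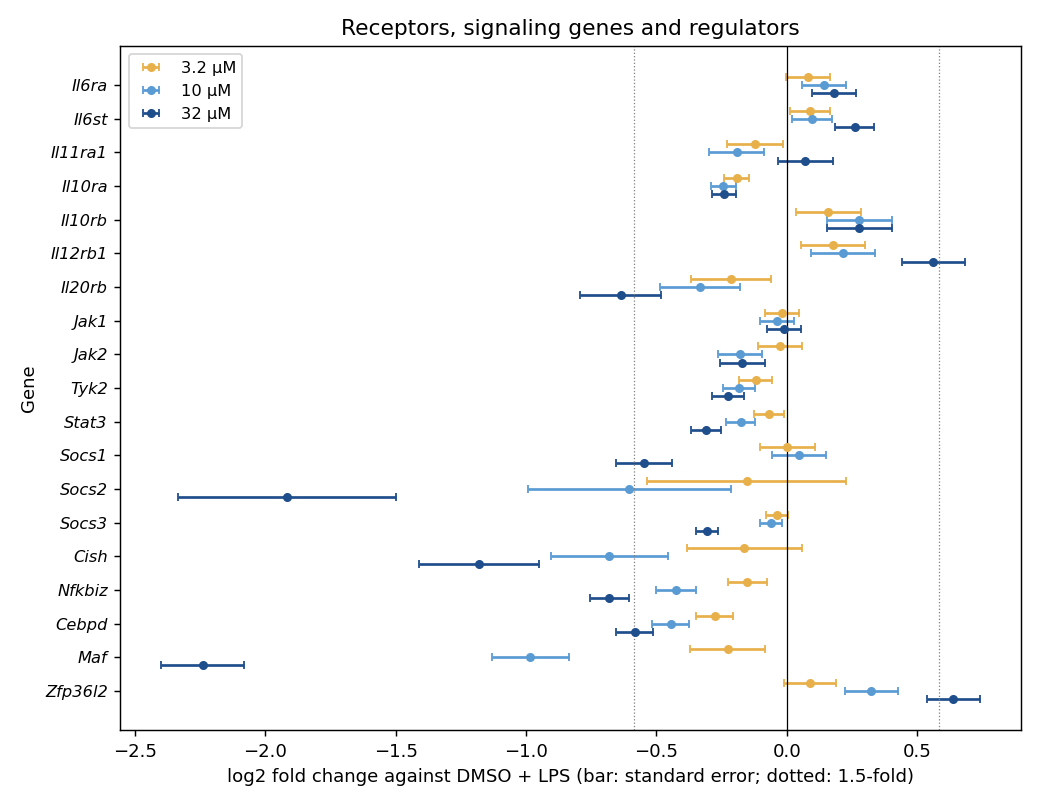
Log2 fold change at 3.2, 10 and 32 µM of **1** against DMSO + LPS for receptor, signaling and regulator genes picked from the lists, with bars of 1 standard error and dotted lines at 1.5-fold. Among the genes drawn, Maf (−2.24), Socs2 (−1.92) and Cish (−1.18) lay furthest below 0 at 32 µM, and Zfp36l2 (0.64) furthest above.

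The genes most like a member across the libraries were taken by the Pearson correlation of log2 CPM over all 10 libraries, among 9561 genes with a mean of at least 5 CPM. These values are descriptions over libraries that share 5 treatments, and the step between cells with and without LPS enters every one of them. The closest were Tnfrsf8 (r = 0.999) for Il6, Ripk2 (0.9996) for Lif, Rsbn1 (0.999) for Osm and Cpne2 (0.9993) for Clcf1. For Il27 they were the interferon-stimulated gene Usp18 (0.9994), then Il15 (0.9992) and Isg15 (0.9988). For Il10 the closest was Oasl1 (0.9971) and for Ebi3 it was Amz2 (0.9934), the lowest leading value of the 7 members compared. Nfkbiz was among the 3 closest to both Lif (0.9991) and Osm (0.9988).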

How the data were processed

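Poly(A) RNA of 10 RAW264.7 libraries was sequenced with a directional kit on 1 lane. The authors deposited raw read counts per mouse Ensembl gene, without normalization, in 1 table with a column for each library. The submitters' processing notes name Trimmomatic, FastQC, STAR, DESeq2 and the mm10 build. The counting tool, its use of strand and the annotation are not given in the sources used here. Totals ranged from 45966803 to 58976377 counts, which leaves genes of under 100 counts with wide counting error, and 0 columns were left unused.

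Symbols were found for 42462 of 43432 identifiers and positions taken from GENCODE M21 (GRCm38). Genes passing filterByExpr (minimum count 10, which left 14172) were TMM-scaled and fitted in edgeR 4.0.16 (R 4.3.3, limma 3.58.1) with 1 mean per group, leaving 5 residual degrees of freedom and a common biological coefficient of variation of 0.128. Quasi-likelihood F tests made 6 comparisons: DMSO + LPS against DMSO, each dose against DMSO + LPS, 32 against 10 µM, and 32 µM against DMSO. Calls needed 1.5-fold and a Benjamini-Hochberg adjusted p below 0.05. SD and n refer to 2 libraries, and p-values measure the spread between libraries that the labels call biological replicates, with no statement of separate cultures. A fold against a group at 0 used a floor of 3 counts per library. Steps were tested on simulated counts. The members and lists were chosen with earlier results of these data known. Named were all members and, from each list, up to 4 called genes with the largest change at 32 µM, receptor subunits that bind a member, and the 3 genes most like each member over 5 CPM. Other genes are marked. A gene was left out of the signaling list and is not reported here. Alternatives were DESeq2 1.42.0 (size factors or Wald test), library size alone, no filter, a mean of at least 5 CPM, a replicate term, the likelihood ratio test, the 4 libraries compared, a 2-fold cutoff, a short-transcript score, and leaving out each library.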

Additional observations from a re-analysis of the deposited data

How the results depend on the processing

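All 9 members tested kept their calls and direction against DMSO, with LPS alone and at 32 µM, under every alternative that tested them. A mean of at least 5 CPM left Il12b and Il23a untested, for 7 calls in each. At 32 µM against DMSO + LPS, Il6, Il10, Il27 and Lif kept their calls under every alternative, and the count was 4 to 5. Ebi3 joined with no filter (−0.70, adjusted p = 0.0433), and Clcf1 without replicate 2 of DMSO + LPS (0.60, adjusted p = 0.0174). At 10 µM the 1 call became 2, with Lif, under DESeq2's size factors, DESeq2's Wald test, no filter or the short-transcript score, 0 with a 2-fold cutoff, and 0 to 2 with a library left out. For 32 against 10 µM the 3 calls became 0 on the 4 libraries compared, where 2 residual degrees of freedom remain (adjusted p = 0.0982 for Il10, 0.137 for Il27, 0.169 for Il6), 1 with a 2-fold cutoff, and 2 with any 1 library left out. At 3.2 µM the count was 0 throughout.

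Of 738 member values under the alternatives, 694 kept direction and side of the thresholds and 22 reversed, 20 of them at 3.2 µM, each with a main value under 0.1 in size. There Il10 was −0.000322 with DESeq2 size factors, −0.00489 with library size alone, −0.0113 with no filter, −0.00111 at 5 CPM, −0.000673 by DESeq2's Wald test, −0.000566 on 4 libraries, −0.0196 with the short-transcript score, and −0.130 to 0.125 (−0.00418 without replicate 1 of DMSO + LPS) with a library left out. With the score, Il27 was −0.0351, Ebi3 −0.129 and Clcf1 −0.0164. With a library left out, Il27 ranged from −0.0262 to 0.0675, Ebi3 from −0.0187 to 0.164, Clcf1 from −0.0366 to 0.0701 and Il23a from −0.273 to 0.272. Without replicate 2 at 10 µM, Ebi3 was 0.0206 at 10 µM (−0.514 without replicate 1) and Il23a 0.0391 for 32 against 10 µM (−0.296 without replicate 1). The cause was not tested. Of 822 pathway gene values, 4 reversed: Il10rb with LPS (0.14 and 0.02 without a library), and Socs1 (−0.11) and Il6st (−0.00366) at 10 µM. Of the rest, 42 lost a call and 13 gained one, 7 of the latter for Cebpd at 32 µM (main value −0.58).

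Counts over all genes moved by over 1.5 times from 3995 to 2641 (mean of 5 CPM) and 2426 (2-fold) with LPS, from 3847 to 2547 and 2245 at 32 µM against DMSO, from 592 to 317 (2-fold) at 32 µM, from 122 to 41 (4 libraries), 224 (score), 36 (2-fold) and 52 to 227 (a library left out) at 10 µM, from 187 to 5 (4 libraries) and 63 (2-fold) for 32 against 10 µM, and from 0 to between 1 and 66 at 3.2 µM. Library size alone moved the median of all genes with LPS from 0.00256 to −0.202 and the share of calls that were higher from 51.9% to 35%, and at 32 µM against DMSO to −0.181 and from 51.1% to 34.7%. The members kept their calls there.

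Deviations of same-numbered libraries correlated at 0.215 to 0.707 in 6 of the 10 pairs of groups and at −0.227 to −0.0913 in the 4 with DMSO + LPS, so the numbers were not taken as pairs. With the replicate block, 5 members were called at 32 µM, with Ebi3 at −0.72 (adjusted p = 0.0372), 1 at 10 µM, 3 for 32 against 10 µM, 9 in both comparisons with DMSO and 0 at 3.2 µM, where Il10 was −0.000219.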
